A study of Mus musculus with 16 samples.

Results

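The genes described here were the collagens of cultured mouse germ cells, taken as every protein-coding gene whose symbol is Col, a type number, the letter a and a chain number. The rule found 44 genes among the 54432 in the table, and among its 21730 protein-coding genes. They were put into 11 fibrillar, 8 basement membrane and 25 other collagens by the kind of structure each chain is known to form. The cells were THY-1+ germ cells from mouse pups, grown on an STO feeder layer (a mouse fibroblast line) between passages 9 and 12 with GDNF at 20 ng/mL, GFRA1 at 150 ng/mL and FGF2 at 1 ng/mL. For the treatments GDNF and GFRA1 stayed at those doses, and FGF was left out in the control, or given as FGF2 at 1 ng/mL or as FGF9 at 1 or 20 ng/mL. The labels list 4 replicates for each of these 4 treatments, 16 samples in all. At harvest the germ cells were detached gently from the feeder, a step meant to leave the feeder cells behind, and any feeder or somatic cells that remained can add RNA.

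The values used here were the authors' mean normalized read counts, 1 number for each gene, taken over all libraries and all treatments together. They carried no SD and no value for a single sample. The effect of FGF9 or FGF2 on the collagens was therefore not analysed here, no level below was tested, and neighbours in an order of levels cannot be said to differ beyond their spread. The depth behind the means could be read from the lowest values, because a gene with 1 read in 1 library has a mean equal to the worth of that read. Exactly 12 such steps were found, so the mean covered 12 libraries, and which of the 16 labelled samples these were is not known. A read added between 0.0609 and 0.198 to the mean, and the libraries' size factors ran from 0.421 to 1.37, a 3.25-fold spread. A mean of 10 thus stood on at least 51 reads. In bulk RNA from a mixed culture, fewer cells of a type and less RNA per cell cannot be told apart.

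Collagens are the main structural proteins of the extracellular matrix. Each chain carries stretches in which a glycine opens each group of 3 residues (Gly-X-Y triplets), and such stretches of 3 chains wind around each other into a rod. The fibrillar chains have a long unbroken rod and pack side by side into fibrils. Type IV chains have a rod with many interruptions and join into the sheet-like network of basement membranes, and in the testis the spermatogonia sit on such a membrane at the edge of the seminiferous tubule. The other collagens attach to fibrils, form filaments or short-chain networks, or span the cell membrane.

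The repeat can be seen in the genes themselves. The stretches below were read from the GENCODE transcript with the longest coding sequence, and their positions are on GRCm38. The highest chain of each class per kilobase was taken, at the first 54 bases of its longest run of triplets that lie within 1 exon, with Col4a1 added after its level was seen because its stretch crosses an interruption. Capitals mark the glycine codon that opens each triplet, and each stretch is written 5′ to 3′ on the strand of its gene.
Col5a1, fibrillar, exon 15, chr2:27965251-27965304, plus strand: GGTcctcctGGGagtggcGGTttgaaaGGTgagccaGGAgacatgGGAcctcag
Col18a1, basement membrane, exon 12, chr10:77077693-77077746, minus strand: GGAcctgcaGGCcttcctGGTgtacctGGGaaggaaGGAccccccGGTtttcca
Col13a1, transmembrane, exon 28, chr10:61863950-61864003, minus strand: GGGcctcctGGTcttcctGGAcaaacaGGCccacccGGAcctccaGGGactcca
Col4a1, type IV, exon 21, chr8:11235141-11235200, minus strand: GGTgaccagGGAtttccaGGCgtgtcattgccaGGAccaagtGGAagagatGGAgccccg
The stretches of Col5a1, Col18a1 and Col13a1 are 54 bases long and hold 6 triplets, with an opening glycine codon at every 9 bases. A glycine elsewhere in a triplet, such as the ggc codon of Col5a1, is left in lower case. In the 60 bases of Col4a1 the spacing breaks once, where 2 further residues separate 3 triplets from the next 3.

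Across the whole coding sequences the classes differed in how long the runs of triplets were. Counting runs of at least 3 triplets, the longest run had a median of 338 triplets in the 11 fibrillar chains, with a range from 216 in Col24a1 to 344 in Col3a1. The 6 type IV chains had longest runs of 39 to 66 triplets and held 23 to 27 runs each, against 2 to 5 runs in a fibrillar chain. Exon lengths also differed between the classes when the genes of each were pooled. Of the 649 coding exons of the fibrillar genes, 305 (47.0%) were exactly 54 bases long, against 16 of 377 (4.24%) in the basement membrane genes and 148 of 979 (15.1%) in the others. The length of 82.4% of the fibrillar coding exons was a multiple of 9 bases, which is a whole number of triplets, against 43.8% and 55.1%. Exons of 54 bases were not particular to fibrillar genes. Within the others, the 9 fibril-associated collagens had 109 of 432 (25.2%). Single genes overlapped, with 28 of 63 in Col22a1 against 21 of 51 in the fibrillar Col1a1. These features describe the reference genes and not the cultures.

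**Figure D1:**
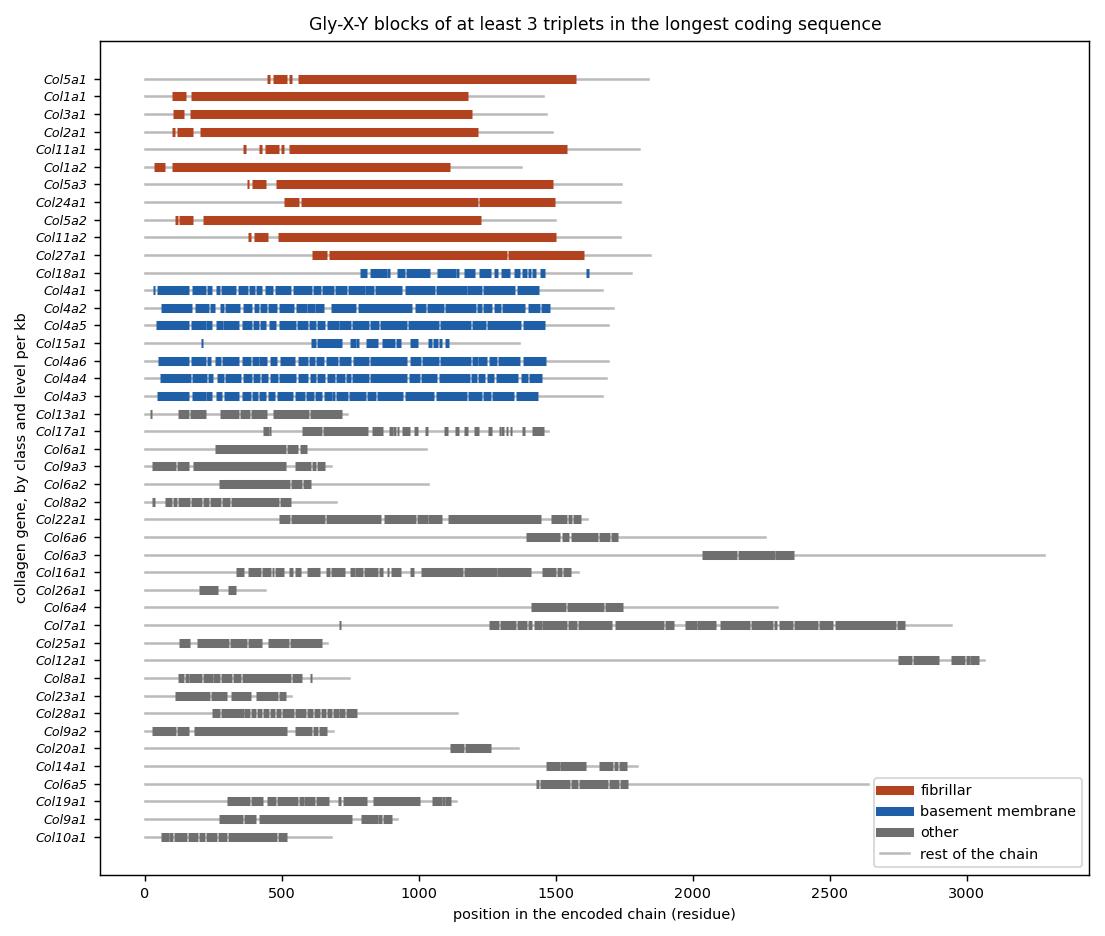
Each horizontal line is the chain encoded by the longest coding sequence of a collagen gene, drawn to scale in residues, with the thick segments marking runs of at least 3 Gly-X-Y triplets and the colours marking the 3 classes. Fibrillar chains show a main run with a median of 338 triplets, type IV chains are cut into 23 to 27 runs, and in Col12a1 the runs cover 8.12% of the residues.

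All 44 collagen genes had a mean above 0, and 38 of them (86.4%) had a mean of at least 10. Of all protein-coding genes, 14502 (66.7%) reached 10. Most collagens thus reached the minimum but were low, on the scale of means not divided by length. On that scale a longer transcript reaches 10 more readily. The place of the collagens among all protein-coding genes per kilobase is not given here. The median of the 38 was a mean normalized count of 183, against 685 for the protein-coding genes that reached 10, and their median percentile among those genes was 28.7. Only 5 collagens lay above the median of those genes, Col5a1 at percentile 87.6, Col18a1 at 86.8, Col1a1 at 78.0, Col13a1 at 71.9 and Col17a1 at 53.6. In total, 26 of the 44 reached a mean of 100 and 4 reached 1000. The means of the 44 added up to 18334, which was 0.0651% of the sum over all genes.

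The summed level was carried by few genes. For comparing genes, the level per kilobase was used, which is the mean normalized count divided by the length of the longest annotated transcript. Where an order is given by mean, it is not corrected for length. Per kilobase Col18a1 (647 per kb), Col13a1 (569), Col5a1 (451) and Col1a1 (398) made up 64.0% of the summed collagen level, and the 10 highest genes 81.5%. They encode a multiplexin, a transmembrane collagen and chains of the fibrillar types V and I. Per kilobase, the fibrillar class held 39.8% of the sum, the basement membrane class 22.2% and the other collagens 38.1%. The share of the basement membrane class lay almost wholly in Col18a1, and without that gene it was 2.68%. The order of the fibrillar and other classes turned with the scale, since per kilobase of coding sequence the other collagens held 41.6% and the fibrillar class 40.8%. The leading gene also changed, to Col13a1 per kilobase of coding sequence and to Col5a1 by mean.

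**Figure D2:**
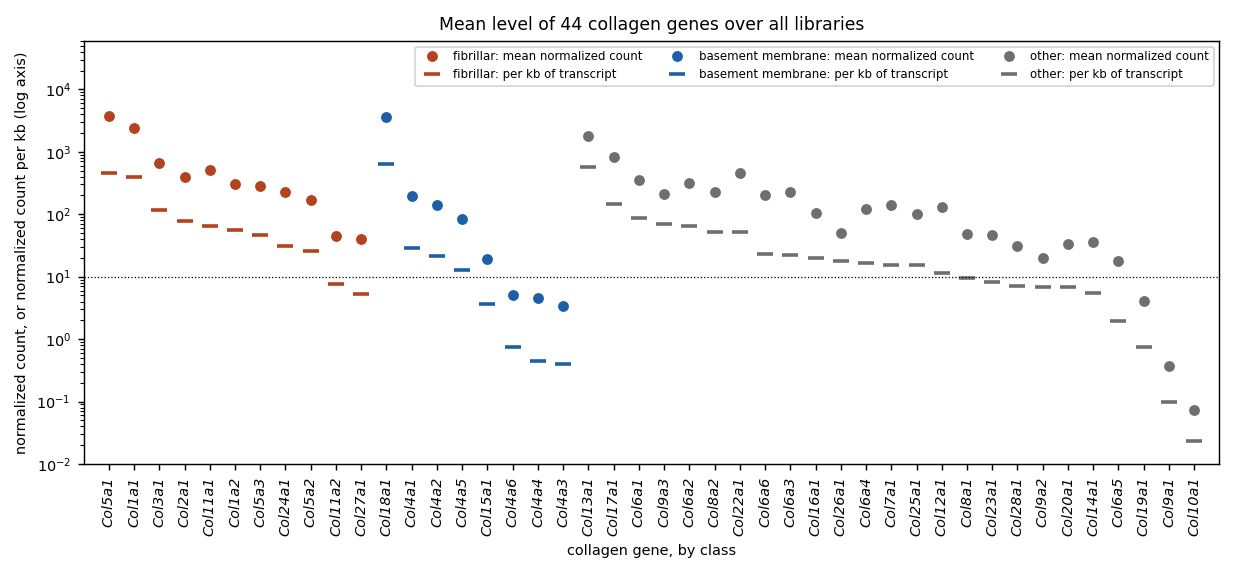
The vertical log axis gives the authors' mean normalized count over all libraries (circles) and the same mean per kilobase of transcript (dashes) for the 44 collagen genes, ordered within their class by level per kilobase, with a dotted line at 10. The fibrillar class lies between means of 40.7 and 3787 with no gene under 10, while the basement membrane class runs from 3617 in Col18a1 to 3.39 in Col4a3.

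**Figure D3:**
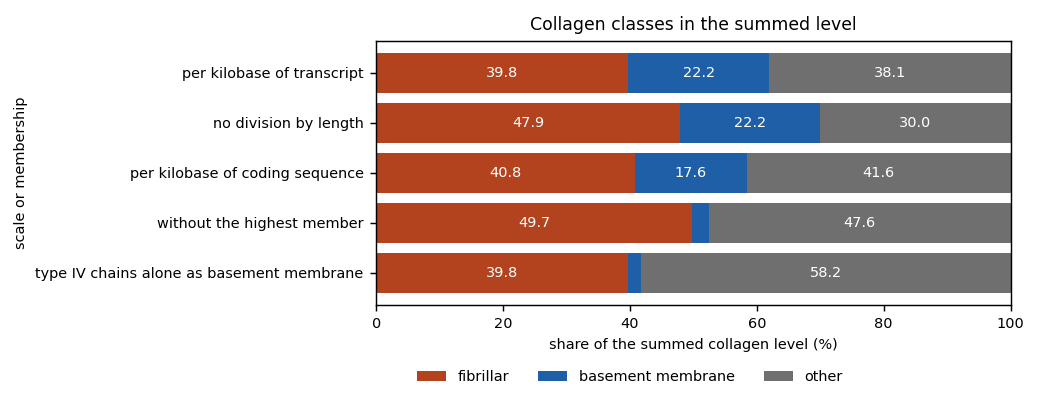
Each bar divides the summed level of the collagen genes among the fibrillar, basement membrane and other classes, in percent, under 5 scales or memberships. The basement membrane share is 22.2% per kilobase of transcript and 2.68% once Col18a1 is left out.

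All 11 fibrillar genes were measured at a mean of at least 10, against 66.7% of all protein-coding genes. Their means ran from 40.7 to 3787. Col5a1, at chr2:27886425-28039514, encodes the chain of type V collagen that takes part in starting fibrils, and it had the highest mean of any collagen, not divided by length, at 3787 (451 per kb). Col1a1, at chr11:94936224-94953042, encodes the main chain of type I collagen, the bulk collagen of connective tissue, and had a mean of 2361 (398 per kb). No other fibrillar gene reached 1000. Col3a1, the chain of type III collagen of soft tissues, had a mean of 658 (118 per kb), and it shares exon sequence on its strand with Gm47302, so that reads could be split between them. Col2a1 and Col11a1, known as cartilage collagens, had means of 400 (78.3 per kb) and 504 (65.7 per kb). Both lay above Col1a2, the partner of Col1a1 in type I collagen, at 300 (56.1 per kb). The remaining type V chains were lower than Col5a1, with Col5a3 at 282 (46.1 per kb) and Col5a2 at 172 (25.9 per kb). The lower fibrillar genes were Col24a1 at 224 (31.3 per kb), Col11a2 at 45.4 (7.50 per kb) and Col27a1 at 40.7 (5.35 per kb). The fibrillar genes therefore spanned the collagen order from rank 3 to rank 36 of 44.

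The basement membrane class was led by a multiplexin and not by type IV collagen. Col18a1, at chr10:77052178-77166548, encodes type XVIII collagen, a heparan sulfate proteoglycan of basement membranes whose end fragment is endostatin. Its mean was 3617, and at 647 per kb it was the highest collagen per kilobase of transcript. The other multiplexin, Col15a1, was close to the minimum with a mean of 19.0 (3.67 per kb). The 6 type IV chains together came to 65.6 per kb, 2.03% of the collagen sum, and Col18a1 alone stood 9.85-fold above them. Col4a1 and Col4a2, the chains found in nearly every basement membrane, had means of 193 (29.2 per kb) and 141 (21.8 per kb). Col4a5 had a mean of 84.8 (13.0 per kb). The remaining type IV chains were under 10: Col4a6 had a mean of 5.05, Col4a4 of 4.54 and Col4a3 of 3.39. Col4a3, Col4a4 and Col4a5 form the network known from the kidney glomerulus, and here Col4a5 was measured without its partners reaching the minimum.

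Other genes of the basement membrane stood above type IV collagen. The 11 laminin chains, which build the second network of the membrane, summed to 1136 per kb, 17.3-fold the type IV sum. Of these chains, 9 reached a mean of 10, against 66.7% of all protein-coding genes. The 3 with the highest means were Lamc1 at 2231 (293 per kb), Lamb1 at 1916 (331 per kb) and Lamb2 at 1801 (320 per kb), an order that differs per kilobase. The nidogens, which link laminin to type IV collagen, had means of 12441 for Nid2 (2552 per kb) and 7646 for Nid1 (1255 per kb), and the proteoglycan genes Agrn and Hspg2 had means of 2749 (319 per kb) and 1594 (112 per kb).

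Type IV genes lie in pairs on opposite strands that start next to each other. Col4a1 and Col4a2 overlap by 22 bases at their starts on chromosome 8. Col4a4 and Col4a3 start 71 bases apart on chromosome 1. Col4a6 and Col4a5 start 1308 bases apart on chromosome X. The means were 193 and 141 for Col4a1 and Col4a2, and 4.54 and 3.39 for Col4a4 and Col4a3. Col4a6 and Col4a5 stood further apart, at 5.05 and 84.8.

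The other collagens were led by genes whose products span the membrane. Col13a1, at chr10:61838236-61979108, encodes a transmembrane collagen of cell adhesion sites, and had a mean of 1801 (569 per kb), the second level per kilobase of the family. Col17a1, which encodes a transmembrane collagen of the hemidesmosome that anchors epithelial cells to their basement membrane, had a mean of 815 (146 per kb). The transmembrane genes Col25a1 and Col23a1 were lower, at 102 (15.2 per kb) and 45.8 (8.09 per kb). The 4 genes summed to 22.9% of the collagen level per kilobase. Col7a1, whose product forms the anchoring fibrils under the epithelium, had a mean of 143 (15.4 per kb), and it shares exon sequence on its strand with Mir711.

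All 6 type VI genes, whose chains form beaded filaments, reached the minimum, against 66.7% of all protein-coding genes. Col6a1 had a mean of 353 (86.1 per kb), Col6a2 of 320 (65.2 per kb) and Col6a3 of 227 (22.4 per kb), and these are the chains of the classical type VI trimer. The later-described chains were Col6a6 at 200 (22.8 per kb), Col6a4 at 122 (16.6 per kb) and Col6a5 at 17.9 (1.93 per kb). The classical chains summed to 174 per kb, 4.20-fold the sum of the later ones. Col6a4, Col6a5 and Col6a6 lie in a row on the same strand of chromosome 9, and Col6a5, which lies between Col6a4 and Col6a6, had the lowest mean of the 3.

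The fibril-associated collagens, which have interrupted rods and sit on the surface of fibrils or at tissue borders, were spread over the whole order. Highest in mean was Col22a1 at 450 (51.1 per kb), known from tissue junctions, and highest per kilobase was Col9a3 at 214 (70.4 per kb), a chain of the cartilage collagen type IX. Col12a1 had a mean of 130 (11.3 per kb), Col16a1 of 104 (20.0 per kb), Col14a1 of 36.0 (5.58 per kb), Col20a1 of 33.8 (6.74 per kb) and Col9a2 of 20.0 (6.86 per kb). Col20a1 shares exon sequence on its strand with BX649560.1. Col19a1 was under the minimum with a mean of 4.13. Col9a1, the remaining type IX chain, had a mean of 0.373, a value that came out as exactly 5 reads spread over 4 libraries.

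Among the short-chain collagens, Col8a2 had a mean of 224 (51.6 per kb) and Col8a1 of 48.0 (9.41 per kb), and both encode network collagens best known from the cornea and vessel walls. Col10a1, the marker collagen of hypertrophic chondrocytes, had the lowest mean of the family, 0.0733, which is 1 read in 1 library. Col26a1, a collagen first described in testis and ovary, had a mean of 50.1 (18.0 per kb), and Col28a1 had 30.5 (7.22 per kb).

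Chains of the same collagen type differed in RNA level by several fold in most of the 9 pairs compared. A ratio of 1 serves only as a reference here. How many of each chain a molecule holds, and whether the 2 always join, was not taken into account. Col1a1 stood 7.10-fold above Col1a2 per kilobase, with a 95% counting interval from 6.73 to 7.49. The intervals given here use the fewest reads a mean allows, cover counting error only, and hold nothing of the spread between samples. Col5a1 stood 17.4-fold above Col5a2 (16.2 to 18.6) and 9.76-fold above Col5a3 (9.25 to 10.3). Col9a3 stood 10.3-fold above Col9a2 (8.38 to 12.7), Col11a1 8.76-fold above Col11a2 (7.65 to 10.1), and Col8a2 5.49-fold above Col8a1 (4.77 to 6.33). The pairs Col4a1 with Col4a2 and Col6a1 with Col6a2 were nearer to even. Col4a1 stood 1.34-fold above Col4a2 (1.22 to 1.48), and Col6a1 stood 1.32-fold above Col6a2 (1.23 to 1.41). Col6a3, which has the longest coding sequence of the family, was 3.84-fold below Col6a1 per kilobase (3.56 to 4.14) and 1.56-fold below it with no division by length. In each of the 9 pairs the same chain was the higher one with and without division by length, and per kilobase of coding sequence.

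**Figure D4:**
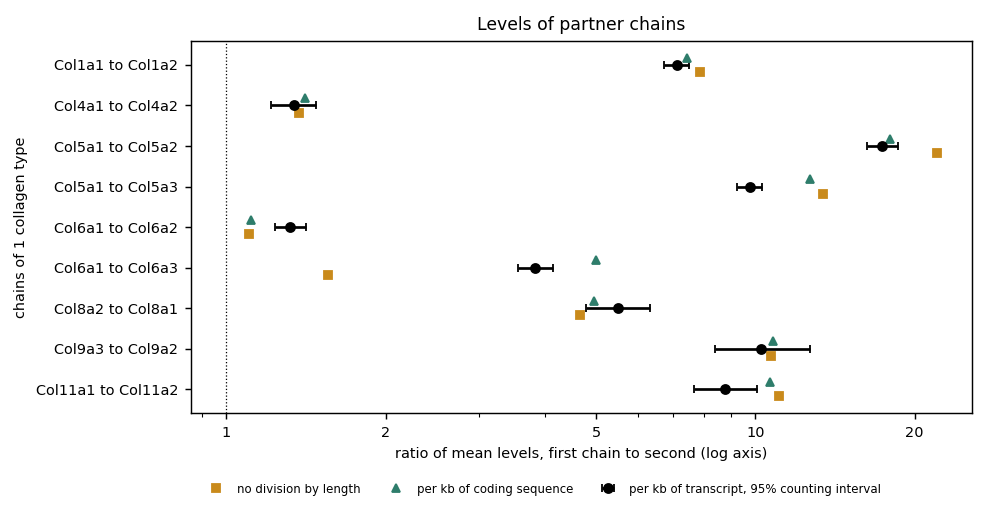
The horizontal log axis gives the ratio of the mean levels of partner chains, per kilobase of transcript with a 95% counting interval (circles), without division by length (squares) and per kilobase of coding sequence (triangles), with a dotted line at 1. Ratios run from 1.32 for Col6a1 to Col6a2 up to 17.4 for Col5a1 to Col5a2 per kilobase of transcript.

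The genes named from the lists below are chosen by their means, not divided by length. The genes that make and export collagen were measured with a median of 248 per kb, against 19.0 per kb for the 44 collagens. Undivided by length their median mean was 562, against 685 for the protein-coding genes that reached 10. Of 22 genes for collagen synthesis and export, 21 reached a mean of 10, against 66.7% of all protein-coding genes. P4hb, a subunit of prolyl 4-hydroxylase that also acts as a general disulfide isomerase, had a mean of 17722, Ppib, a prolyl isomerase of the endoplasmic reticulum, of 4155, and Plod2, a lysyl hydroxylase, of 3524. P4ha3 alone was under 10, at 1.71. The genes that act on collagen outside the cell had a median of 10.9 per kb. All 13 of them reached 10, but their means ran from 15.7 to 400, with Adamts3 and Bmp1, which cut off the ends of procollagen, at 400 and 217 and Pcolce, which aids that cleavage, at 308.

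Of 10 receptor genes for collagen, 8 reached a mean of 10, against 66.7% of all protein-coding genes. Itgb1, the shared beta chain of the collagen-binding integrins, had a mean of 8852, Ddr1, a receptor kinase that binds collagen, of 6668, and Mrc2, which takes up collagen for breakdown, of 1523. Among the integrin alpha chains of the list, Itga1 had a mean of 1019. Itga10, Itga2 and Itga11 were lower, at 40.3, 24.2 and 11.7. Per kilobase, Ddr1 stood 82.6-fold above Ddr2, the discoidin receptor known from mesenchymal cells. The gap was smaller with no division by length, where the means were 6668 for Ddr1 and 179 for Ddr2. Gp6 and Lair1, collagen receptors of platelets and of immune cells, were at 1.50 and 6.92.

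The levels carry no record of which cells the reads came from. All 11 markers of undifferentiated germ cells reached a mean of 10, with Dazl at 47959, Ret at 17225 and Etv5 at 12748. Dazl, the highest of them, stood 24.9-fold above Col18a1 per kilobase. The 11 markers had a median of 1879 per kb, and their lowest mean was 28.4, below the 3617 of Col18a1. Of 12 fibroblast markers, 11 reached 10, with Fn1 (fibronectin) at 10622, Vim at 1049 and Fstl1 at 1024, while Lum, a proteoglycan gene of fibroblasts, was at 0.147. Markers of other testis and vessel cells reached 10 in 3 of 5 genes for Sertoli cells, 1 of 4 for Leydig cells, 2 of 3 for peritubular myoid cells, 3 of 3 for endothelium and 1 of 3 for macrophages. Of all protein-coding genes, 66.7% reached 10, so reaching it does not by itself show that a cell type was present. The Leydig cell gene Hsd3b1 was at 0, while Star of the same list had a mean of 78.8. The Sertoli cell gene Sox9 had a mean of 424 (103 per kb), while Gata4 and Amh of the same list were at 9.55 and 2.55. The macrophage gene Cd68 had a mean of 130 (106 per kb), while Csf1r and Adgre1 of its list were at 2.49 and 0.188. The part of feeder or other somatic cells in the collagen levels was not tested.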

How the data were processed

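RNA from cultured mouse germ cells was made into stranded poly(A) libraries. The submitters' processing notes name STAR, Salmon, DESeq2 and the build GRCm38, and their versions were not given in the sources used here. As deposited by the authors, the table has for each gene a signal that is the mean over libraries of read counts divided by size factors. The same mean stands in 3 columns. A further 15 columns hold the authors' own comparisons of each FGF treatment with control (log2 fold changes, their errors, test statistics and p-values) and were not used. The table holds 0 columns for single libraries, so no treatment was compared and no test was run.

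The worth of 1 read in each library was taken as a low mean that at least 20 genes share and that is not a sum of lower ones. This was tested on simulated whole counts that held counting error only. With 8, 12 and 16 libraries set, 1 run each, it found the number set. A read here may be an estimated count rounded to a whole number. Levels per kilobase used the longest transcript of each gene in GENCODE release M21 (GRCm38), and exons and neighbours came from the same annotation. A gene was called measured at a mean of at least 10. Every collagen was named, and of the other lists the 3 genes with the highest means, undivided by length, and any at 0 could be named. P4ha3, Gp6, Lair1, Lum, Sox9, Gata4, Amh, Star, Cd68, Csf1r, Adgre1, Ddr2 and the fourth basement membrane partner were named after their values were seen. The same holds for Itga1, Itga2, Itga10 and Itga11. Other list genes under 10 are given by count. The members and lists were chosen with earlier results of these data known, and the triplet, exon and neighbour counts were added after the levels were seen. Alternatives were other minima, no division by length, coding length, leaving out the highest gene, another class membership and another background. Python 3.11.15, pandas 2.3.3, numpy 2.4.6, scipy 1.17.1 and matplotlib 3.10.9 were used.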

Additional observations from a re-analysis of the deposited data

How the results depend on the processing

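No paired analysis was possible because the table gives no value for single libraries. For the same reason the count model, the fits without each replicate and other scalings of the libraries were not run. Of 36 values recomputed under an alternative, 14 stayed near the main value, and 22 moved beyond their counting interval or by over 1.5 times. Some of the 14 could not move. The symbol rule finds the same 44 genes with any type allowed. Taking type IV alone as basement membrane leaves the fibrillar share untouched. No ratio between partner chains crossed 1, but the other collagens passed the fibrillar class per kilobase of coding sequence and with type IV chains alone as basement membrane. The number of collagens measured was 42 at a mean of at least 1, 28 at 50 and 38 with genes of any type. The shares of all protein-coding genes at 1 and at 50 are not given here. With no division by length the fibrillar share was 47.9% and that of the other collagens 30.0%. Per kilobase of coding sequence the shares were 40.8% fibrillar, 17.6% basement membrane and 41.6% other. Without Col18a1, the highest gene, they were 49.7%, 2.68% and 47.6%. With type IV chains alone as basement membrane collagens, that class held 2.03% and the others 58.2%. The ratio of Col1a1 to Col1a2 was 7.87 with no division by length, that of Col5a1 to Col5a2 22.0 and that of Col8a2 to Col8a1 4.65. With no division by length and per kilobase of coding sequence, in that order, the ratio of Col5a1 to Col5a3 was 13.4 and 12.7, of Col6a1 to Col6a2 1.10 and 1.11, of Col6a1 to Col6a3 1.56 and 4.99, and of Col11a1 to Col11a2 11.1 and 10.7. Of the 10 highest collagens, 9 and 8 were shared with the order per kilobase of transcript. Against all protein-coding genes above 0 the median percentile was 46.7, since more low genes were then in the background. Which transcripts the cultures use was not tested.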
